A study of Mus musculus with 24 samples.

Results

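The clustered protocadherin locus of mouse chromosome 18 was described in chromatin immunoprecipitation sequencing (ChIP-seq) of the histone variant H2AX and of its phosphorylated form gH2AX. Its members were the 10 consecutive bins of 100 kb that span chr18:36900001-37900000 (mm10), out of 27268 bins in the deposited count table and 26350 on chromosomes 1 to 19 and X. The rule that defines them uses genome position and no measured value, and all 10 passed the filter on low counts. The 10 bins on either side, chr18:35900001-36900000 and chr18:37900001-38900000, served as flanks for contrast.

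The cells were primary mouse embryonic fibroblasts (MEFs) of strain C57BL6, female or male, either wild type (WT) or lacking SIRT7 (SIRT7-KO, here KO), a sirtuin deacetylase of the nucleus and nucleolus. All of them, WT and KO alike, had received 5 Gy of X-rays and 30 min of recovery, and no labelled sample was unirradiated. H2AX was precipitated with an Abcam antibody (ab20669), gH2AX with a Sigma antibody, and input was chromatin that was not precipitated. H2AX, gH2AX and input were each sequenced in 2 libraries per sex and genotype, which gave 12 groups and 24 libraries. Nothing in the labels tells whether both libraries of a group stem from different cultures or embryos, so the p-values reflect the spread between libraries, which may be technical. For the same reason a KO to WT difference cannot be told apart from a difference between cultures.

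Clustered protocadherins are cadherin-like adhesion proteins, best known from neurons, where each cell expresses a small random set of them and so gains a surface identity. The alpha and gamma groups (Pcdha and Pcdhg) carry tandem variable exons, each with its own promoter, that are spliced to a shared set of constant exons, whereas the beta genes (Pcdhb) are single-exon genes without constant exons. Promoter choice at the locus is tied to DNA methylation, CTCF and cohesin. H2AX is a variant of the core histone H2A that is phosphorylated over long stretches of chromatin around DNA double-strand breaks, and the phosphorylated form is called gH2AX.

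In the RefSeq annotation of GRCm38, the assembly mm10 is made from, 14 Pcdha genes spanned chr18:36930285-37188897 and 22 Pcdhb genes spanned chr18:37264998-37521419. The 22 Pcdhg genes, 1 of them not annotated as protein-coding, spanned chr18:37661775-37841873. A bin was given to the group whose gene bodies covered most of it. The 3 Pcdha bins started at 36.9, 37.0 and 37.1 Mb, the 4 Pcdhb bins at 37.2, 37.3, 37.4 and 37.5 Mb, and the 3 Pcdhg bins at 37.6, 37.7 and 37.8 Mb. Most variable exons and the constant exons fell into different bins. The bin at 36.9 Mb held the first exons of Pcdha1 to Pcdha9, the bin at 37.0 Mb those of Pcdha10 to Pcdha12 and Pcdhac1, and the bin at 37.1 Mb that of Pcdhac2 together with the constant exons at the end of the group. The Pcdhb bins were mostly intergenic, with gene bodies over 5.23%, 20.5%, 39.1% and 10.9% of their length. The bin at 37.6 Mb held 7 Pcdhg starts beside Slc25a2 and Taf7, the bin at 37.7 Mb held 12, and the bin at 37.8 Mb held Pcdhgc3, Pcdhgc4 and Pcdhgc5 beside the formin gene Diaph1. Variable exons are similar in sequence, and how reads with several alignments were counted is not given in the sources used here, so reads could be exchanged between neighbouring paralogs, mostly within a bin or a group.

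Library totals were 84.5 M to 212 M reads for gH2AX, 66.9 M to 250.2 M for H2AX and 92.4 M to 269 M for input (M, 1e6 reads). A cluster bin held 2058 to 9365 reads per gH2AX library, 2239 to 10783 per H2AX library and 2796 to 9863 per input library. Replicates of a group differed by 2.58 to 3.90 times the chi-square per degree of freedom that counting error alone gives. Reads on X and Y fell with the labelled sex in all 24 libraries. Values are given as reads per 1e6 (CPM), scaled with TMM factors, and ratios as log2 with their standard error (SE). Tests are edgeR's quasi-likelihood F test, two-sided, with Benjamini-Hochberg adjustment over the whole table, and "called" means an adjusted p under 0.05. The log2 ratios set each bin against the genome-wide scale of each antibody, so they say nothing about the absolute amount of either histone form.

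Over most of the cluster, gH2AX lay below input and below H2AX, while the flanks lay above input. Averaged over the 4 sex and genotype groups, gH2AX to input was lower in 7 of the 10 bins, higher in 2 and not called in 1. Over the whole genome, 86.6% of bins were called in this comparison, 45.2% lower and 41.5% higher, so a call by itself does not set a bin apart. The cluster median was -0.14 against -0.01 for all bins, at the 23.8th percentile. The median of the 20 flanking bins was 0.26, and 18 of them were called higher and 0 lower.

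**Figure D1:**
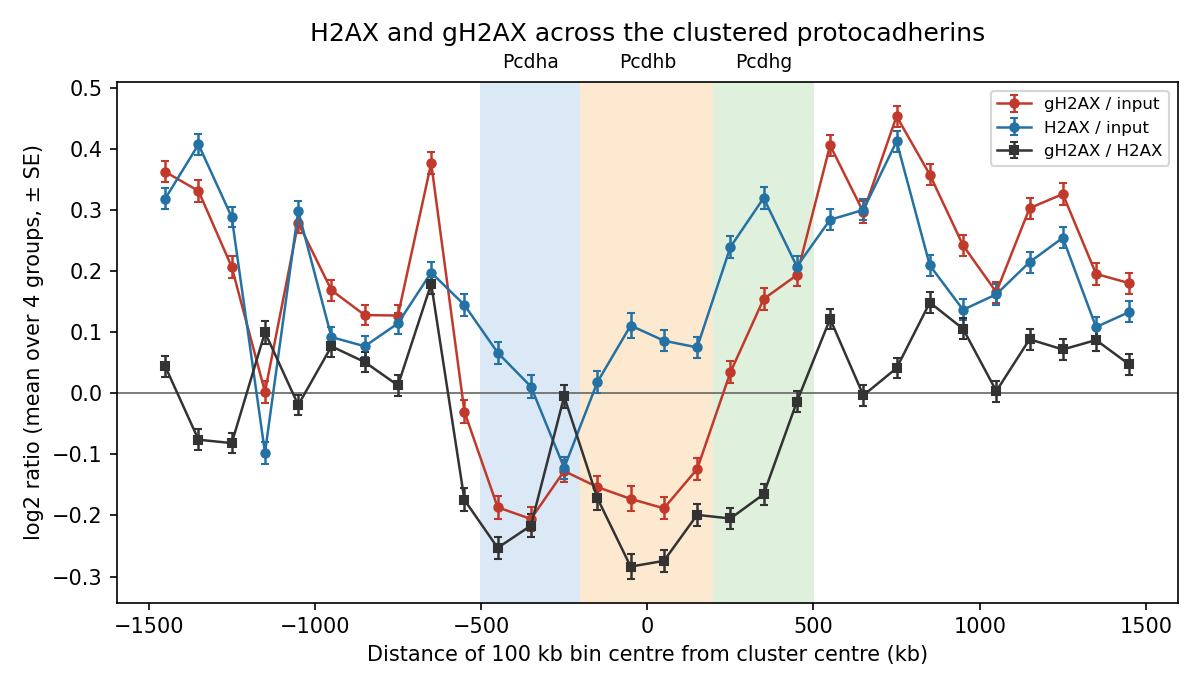
Log2 ratio of gH2AX to input, H2AX to input and gH2AX to H2AX (vertical axis, mean of the 4 sex and genotype groups, error bars 1 SE) against the distance of each 100 kb bin from the centre of the protocadherin cluster (kb), with the Pcdha, Pcdhb and Pcdhg bins shaded. gH2AX to input is below 0 in the 7 Pcdha and Pcdhb bins (-0.21 to -0.12) and called above input in 18 of the 20 flanking bins, while H2AX to input is lowest at the last Pcdha bin (-0.12).

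The Pcdha bins were low in gH2AX. At 37.0 Mb (Pcdha10 to Pcdhac1), gH2AX read 30.8 and 32.2 CPM in female KO, 30.1 and 32.0 in female WT, 30.0 and 29.7 in male KO, and 34.8 and 34.1 in male WT, against 34.6 to 38.5 in the 8 input libraries. Male WT was the highest group and overlapped the lowest input library, while the other 3 groups lay below all input libraries. The log2 ratio of gH2AX to input was -0.21 ± 0.02 (SE), the lowest of the 10 bins and 13.3% below input (mean of 4 groups of 2 libraries). At 36.9 Mb (Pcdha1 to Pcdha9) the 8 gH2AX libraries read 31.6, 32.4, 30.9, 31.7, 31.3, 30.9, 35.9 and 34.2 CPM in the order female KO, female WT, male KO, male WT. Input read 35.9 to 38.2 CPM there, and the ratio was -0.19 ± 0.02. The last Pcdha bin behaved otherwise. At 37.1 Mb, which holds the Pcdhac2 start and the constant exons, gH2AX read 34.4 and 35.3 CPM in female KO, 35.1 and 33.3 in female WT, 34.6 and 35.8 in male KO, and 35.2 and 35.3 in male WT, with no group apart from the others. Its ratio to input was -0.13 ± 0.02 (adjusted p = 4.11e-11).

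The Pcdhb bins were as low as the Pcdha bins, and the bin at 37.3 Mb, with the starts of Pcdhb3 to Pcdhb8, had the fewest gH2AX reads. It read 28.7 and 29.4 CPM in female KO, 27.1 and 26.8 in female WT, 25.5 and 27.8 in male KO, and 29.2 and 29.8 in male WT. All 8 lay below the input libraries (30.7 to 32.4 CPM), and the ratio was -0.17 ± 0.02 (adjusted p = 4.6e-15). At 37.4 Mb (Pcdhb9 to Pcdhb19), gH2AX read 32.6 and 33.3, 32.8 and 31.7, 30.9 and 30.6, and 33.1 and 32.3 CPM in the same order of groups, all below input at 35.4 to 37.9. That ratio was -0.19 ± 0.02. The sparsely covered end bins of the group were lower than input too. At 37.2 Mb (Pcdhb1 and Pcdhb2) gH2AX read 31.5, 33.0, 31.1, 31.2, 29.0, 30.2, 33.0 and 33.0 CPM, all below input at 33.6 to 35.6, with a ratio of -0.15 ± 0.02. At 37.5 Mb (Pcdhb20 to Pcdhb22) it read 35.6, 36.6, 35.9, 35.6, 33.8, 34.3, 36.7 and 38.7 CPM, and only the second male WT library reached into the input range of 37.5 to 39.9, with a ratio of -0.12 ± 0.02.

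The Pcdhg bins ran from near input to above it, with a median of 0.15 against 0.30 for the right flank. At 37.6 Mb gH2AX ran from 35.1 to 39.1 CPM and input from 35.4 to 38.3, so they overlapped, and the ratio of 0.03 ± 0.02 was not called (adjusted p = 0.0703). It was called higher without the second gH2AX library of male WT or the second input library of female KO. The bin at 37.7 Mb lies wholly within Pcdhg gene bodies, introns included. There gH2AX read 39.2 and 39.4 CPM in female KO, and 41.4 and 37.8 in female WT. It read 41.5 and 41.7 in male KO, and 39.2 and 39.3 in male WT. All were above input (35.0 to 37.2 CPM), and the ratio was 0.15 ± 0.02 (adjusted p = 1.1e-15). At 37.8 Mb, with the Pcdhgc genes and Diaph1, gH2AX read 43.0 and 42.7, 43.5 and 45.6, 45.3 and 46.2, and 42.8 and 44.1 CPM against 37.3 to 40.5 for input. Its ratio of 0.19 ± 0.02, 14.3% above input, was the highest of the 10. The highest flanking bin, at 38.1 Mb with the non-clustered protocadherin Pcdh1, stood at 0.45 ± 0.02, and the lowest, the bin without a protein-coding gene at 36.8 Mb next to Pcdha, at -0.03 ± 0.02 (adjusted p = 0.126).

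H2AX itself followed that pattern only in part. Its median ratio to input was 0.01 for the Pcdha bins, 0.08 for the Pcdhb bins and 0.24 for the Pcdhg bins. It too was thus lower over Pcdha and Pcdhb than over Pcdhg, but mostly not below input. H2AX to input was higher in 7 of the 10 cluster bins and lower in 1, beside 89.4% of all bins called, 44.9% higher and 44.5% lower. The cluster median was 0.08 and that of the flanks 0.20. The highest bin was at 37.7 Mb, where H2AX read 44.0 and 41.8 CPM in female KO, 43.3 and 44.2 in female WT, 47.2 and 45.8 in male KO, and 44.7 and 46.7 in male WT, all above input. That ratio was 0.32 ± 0.02, or 24.8% above input. The neighbouring Pcdhg bins were at 0.24 and 0.21, so the gamma group was the H2AX-rich end of the cluster. The only bin below input was the last Pcdha bin at 37.1 Mb. There H2AX read 35.1 and 36.2, 34.3 and 34.9, 34.5 and 35.1, and 35.0 and 35.0 CPM in the same order of groups, below all input libraries (at least 36.8), for a ratio of -0.12 ± 0.02 (adjusted p = 1.07e-10). The other Pcdha bins, at 0.07 (36.9 Mb) and 0.01 (37.0 Mb, adjusted p = 0.573), and the Pcdhb bins, from 0.02 (37.2 Mb, adjusted p = 0.341) to 0.11 (37.3 Mb), lay near input.

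Set against H2AX, gH2AX was lower in 8 of the 10 cluster bins and higher in 0, beside 75.1% of all bins called, 36.6% lower. The 2 bins that were not called were the ends that hold constant exons, 37.1 Mb (-0.01, adjusted p = 0.803) and 37.8 Mb (-0.01, adjusted p = 0.454). The cluster median was -0.20, at the 6.99th percentile, with 1796 of 25703 bins at or below it. The flanks had a median of 0.05, with 13 of 20 called higher and 3 lower. The lowest bin was at 37.3 Mb (Pcdhb3 to Pcdhb8), where the H2AX libraries read 33.2 to 35.7 CPM and the gH2AX libraries 25.5 to 29.8. The 2 sets of libraries did not overlap, and the ratio was -0.28 ± 0.02, 17.9% below H2AX and at the 2.50th percentile of all bins. The next lowest were 37.4 Mb (-0.27) and 36.9 Mb (-0.25), and the flanking bin at 36.8 Mb stood at -0.17 ± 0.02. The Pcdhg bins at 37.6 Mb (-0.20) and 37.7 Mb (-0.17) were low in this ratio although they were not below input, with H2AX at its highest there.

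Averaged over the 4 sex and genotype groups, gH2AX lay below input and H2AX above it, both called, in 4 of the 10 cluster bins. These were at 36.9, 37.3, 37.4 and 37.5 Mb. The combination occurred in 0 of the 20 flanking bins and in 3.93% of all bins tested (1009). The 4 bins hold the starts of Pcdha1 to Pcdha9 and of Pcdhb3 to Pcdhb22. Not all 4 showed it in each group. H2AX to input was called higher in 1 Pcdhb bin in male WT, 1 in female KO, 2 in male KO and 3 in female WT. For the Pcdha bins the counts were 0, 1, 0 and 1 in that order.

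A ratio of reads per cluster bin to reads per flanking bin was taken within each library, which no scaling between libraries can move. For input it ran from -0.06 to -0.01 (log2, mean -0.02), for H2AX from -0.15 to -0.09 (mean -0.12) and for gH2AX from -0.43 to -0.24 (mean -0.34 ± 0.07 SD, n = 8 libraries). The ranges of the 3 kinds of library did not overlap. The flanks were not at the genome-wide level, however. Their median gH2AX to input ratio was 0.26, at the 86.9th percentile of all bins, against -0.14 for the cluster, at the 23.8th. For H2AX to input the flank median was 0.20, at the 76.4th percentile. The cluster to flank ratio thus reflects the height of the flanks as well as the level of the cluster. By gene group, the mean gH2AX ratio to the flanks was -0.42 for the Pcdha bins, -0.47 for the Pcdhb bins and -0.12 for the Pcdhg bins. H2AX gave -0.22, -0.19 and 0.04 for these groups, and input 0.00, -0.06 and -0.00. The gH2AX means of Pcdha and Pcdhb are close once the lower input over Pcdhb is taken into account: the median gH2AX to input ratio was -0.19 for the Pcdha bins and -0.16 for the Pcdhb bins.

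**Figure D2:**
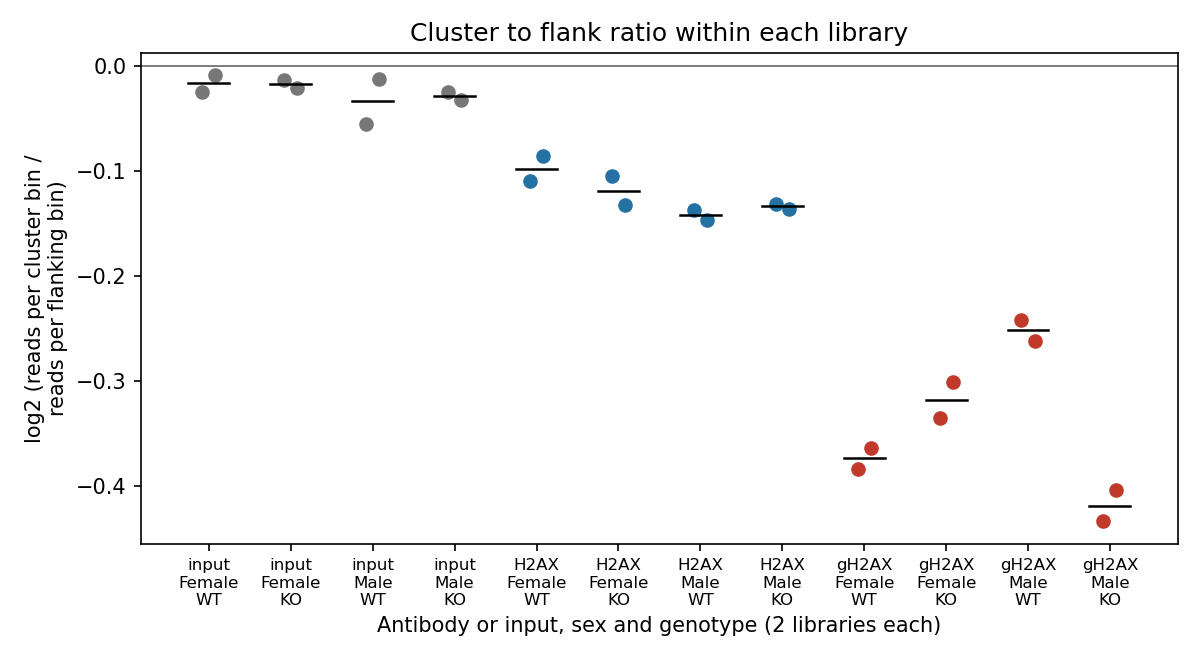
Log2 ratio of mean reads per bin in the 10 cluster bins to that in the 20 flanking bins (vertical axis) for each library (points) and group mean (black bars), by antibody or input, sex and genotype (2 libraries each). Input lies at -0.06 to -0.01, H2AX at -0.15 to -0.09 and gH2AX at -0.43 to -0.24, with male WT the highest and male KO the lowest of the gH2AX groups.

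The dip in gH2AX over Pcdha and Pcdhb was present in each of the 4 groups, but its depth differed. The cluster median of gH2AX to input was -0.12 in female KO, -0.16 in female WT, -0.21 in male KO and -0.07 in male WT. In the first 3 of these, 7 of 10 bins were called lower and 2 higher, where 66.8%, 75.1% and 78.6% of all bins were called. In male WT 5 were lower and 2 higher, with 61% of all bins called. Of the 25703 bins tested, 8545 were lower in female KO, 9902 in female WT, 10548 in male KO and 7503 in male WT. Those called higher numbered 8630, 9394, 9652 and 8169 in that order. The gH2AX to H2AX ratio was lower in 8 bins in female KO (median -0.21, 27.7% of all bins lower), in 8 in female WT (-0.24, 26.5%), in 8 in male KO (-0.25, 27.7%) and in 6 in male WT (-0.11, 27.1%). The H2AX to input median was 0.07, 0.11, 0.08 and 0.05 in that order. Male WT was therefore the group in which gH2AX over the cluster lay closest to the genome-wide level.

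**Figure D3:**
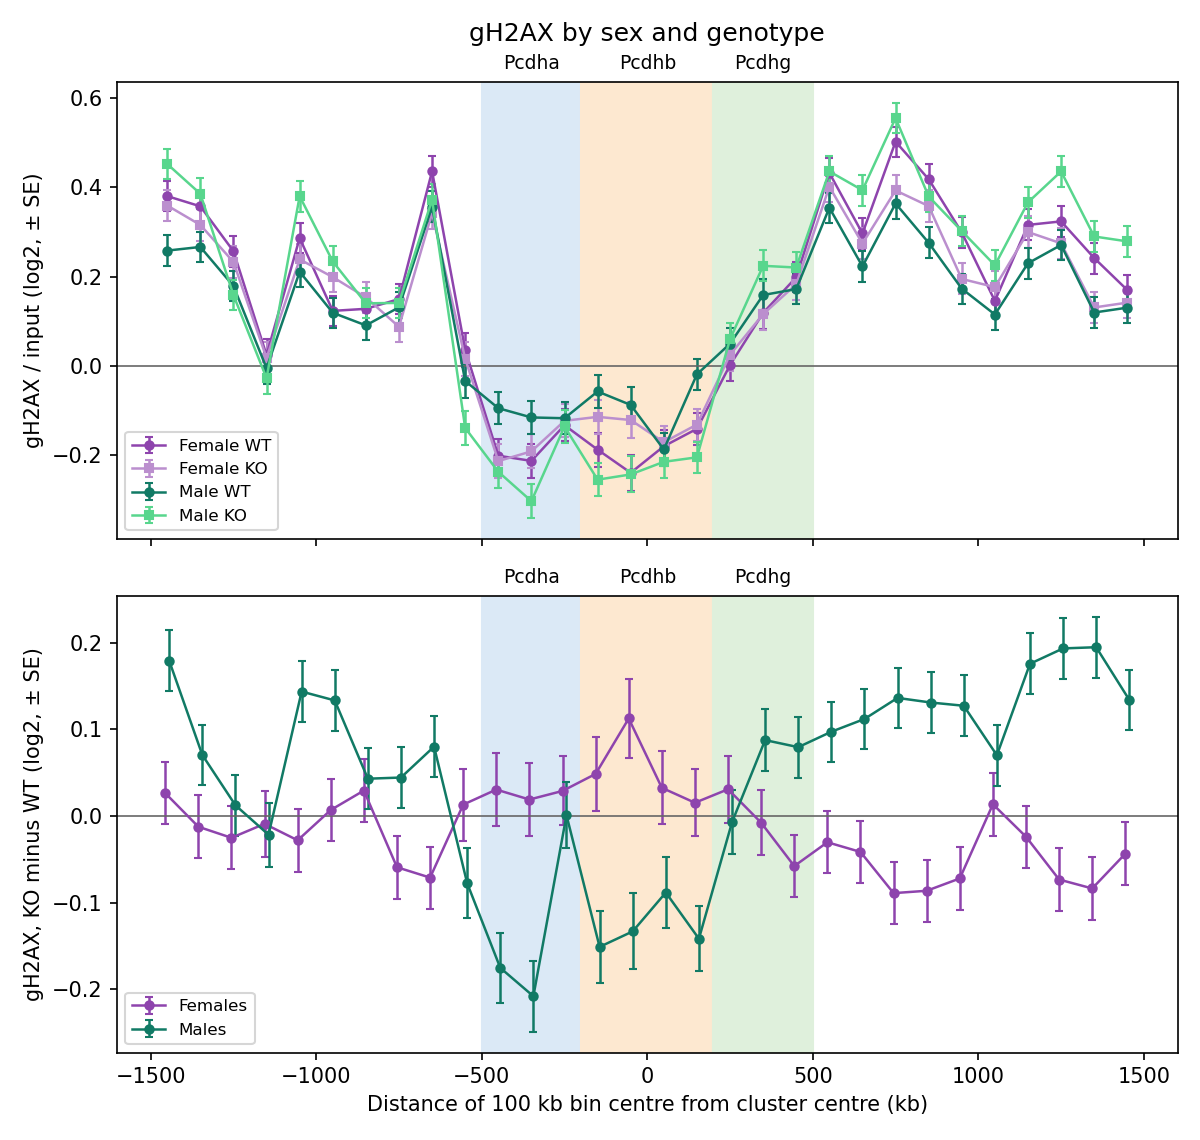
Upper panel, log2 ratio of gH2AX to input by sex and genotype; lower panel, log2 difference in gH2AX between KO and WT within each sex; both against the distance of the 100 kb bin from the cluster centre (kb), error bars 1 SE, 2 libraries per group. In males the difference is between -0.21 and -0.13 in 5 Pcdha and Pcdhb bins and above 0 in most flanking bins, while in females it lies between -0.06 and 0.11 over the cluster.

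In males, gH2AX was lower in KO than in WT over most Pcdha and Pcdhb bins and slightly higher over 1 Pcdhg bin. Of the 10 bins, 5 were lower and 1 higher, beside 44.7% of all bins called in this comparison, 22.2% lower and 22.4% higher. The difference was largest at 37.0 Mb (Pcdha10 to Pcdhac1), where the male KO libraries read 30.0 and 29.7 CPM and the male WT libraries 34.8 and 34.1. The groups did not overlap, and the log2 difference was -0.21 ± 0.04, 13.4% lower in KO (adjusted p = 1.2e-05, n = 2 against 2, edgeR). It was -0.18 ± 0.04 at 36.9 Mb, with 31.3 and 30.9 against 35.9 and 34.2 CPM, and 0.00 ± 0.04 at 37.1 Mb, with 34.6 and 35.8 against 35.2 and 35.3. Of the 3 Pcdha bins, the constant-exon end was thus the 1 without a call.

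Among the Pcdhb bins, the male difference was -0.15 ± 0.04 at 37.2 Mb, -0.13 ± 0.04 at 37.3 Mb and -0.14 ± 0.04 at 37.5 Mb, with adjusted p-values of 0.00155, 0.00874 and 0.00115 (edgeR). At 37.4 Mb it was -0.09 ± 0.04 and not called (adjusted p = 0.065), although male KO (30.9 and 30.6 CPM) lay below male WT (33.1 and 32.3). The Pcdhg bins differed in sign. The value was -0.01 ± 0.04 at 37.6 Mb, 0.09 ± 0.04 at 37.7 Mb (adjusted p = 0.0367) and 0.08 ± 0.04 at 37.8 Mb (adjusted p = 0.0514). The call at 37.7 Mb was lost without any 1 of the 4 male libraries (0.08 to 0.09) and with DESeq2. Without the second male WT library 3 of the 10 bins were called, and those at 37.3 Mb (-0.12) and 37.5 Mb (-0.11) were not. The call at 37.3 Mb was also lost without the first male KO library (-0.08). Male KO lay below male WT in both libraries of 6 bins and above it in 2, and the same held for 39.4% and 35.2% of all bins. In the flanks, 13 of 20 bins were higher in male KO and 0 lower, with a median of 0.12.

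The direction of the male difference went with the level of gH2AX itself. Bins rich in gH2AX were higher in male KO and bins poor in it were lower, across the genome. Each library's log2 gH2AX was taken as its deviation from the mean of the 8 gH2AX libraries in that bin. Its slope on the mean gH2AX to input ratio was 0.24 and 0.20 in male KO and -0.19 and -0.24 in male WT. In the female libraries the slope was -0.06 and -0.12 in KO and 0.12 and 0.05 in WT. A negative slope means a flatter gH2AX profile than that of the 8-library mean, not gH2AX that falls as enrichment rises. The 8 slopes balance out by construction, so positive slopes in some libraries require negative ones in others. With each library's trend removed, the male differences over the cluster ran from -0.09 (37.0 Mb) to 0.07 (37.1 Mb) with a median of -0.03, and 0 of the 10 bins were called by edgeR, beside 1.67% of all bins. The flank median was then -0.00 and 0 flanking bins were called. The trend is estimated from the same gH2AX libraries that are compared. What makes the slopes differ between groups was not tested.

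**Figure D4:**
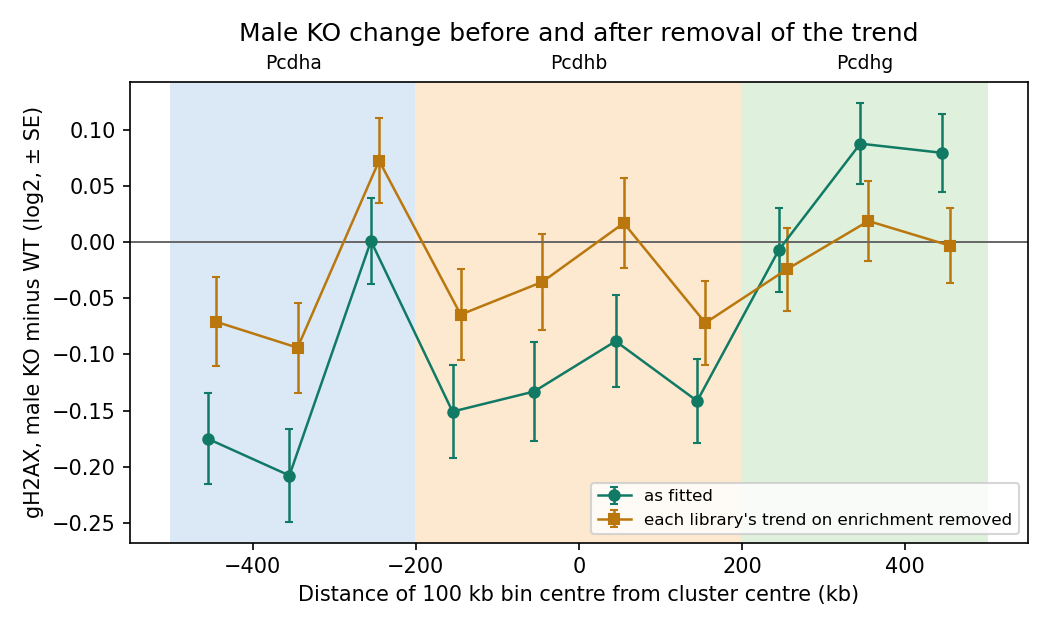
Log2 difference in gH2AX between male KO and male WT (vertical axis, error bars 1 SE) in the 10 cluster bins, by distance from the cluster centre (kb), as fitted and after each library's trend on gH2AX enrichment was removed. As fitted the values run from -0.21 to 0.09, and after removal from -0.09 to 0.07 with 0 bins called.

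In females no cluster bin was called for gH2AX. edgeR called 0 of 10, 1 had an unadjusted p under 0.05, DESeq2 called 0, and 1.01% of all bins were called. The values ran from -0.06 ± 0.04 at 37.8 Mb to 0.11 ± 0.05 at 37.3 Mb. At 37.3 Mb female KO read 28.7 and 29.4 CPM and female WT 27.1 and 26.8, so the groups did not overlap (adjusted p = 0.209, edgeR). Of the 25702 bins tested, 5950 were higher in female KO without overlap and 5485 lower. At 37.0 Mb, the lead bin of the males, female KO (30.8 and 32.2 CPM) and female WT (30.1 and 32.0) overlapped, with a difference of 0.02 ± 0.04. With each library's trend removed, 0 bins were called in females too, beside 0.257% of all bins.

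The difference between the sexes was tested itself, as the KO effect in females minus that in males. It was higher in 5 of the 10 bins and lower in 1, beside 40.5% of all bins called, 20.1% higher and 20.4% lower. The values at the Pcdha bins were 0.21 ± 0.06 (36.9 Mb), 0.23 ± 0.06 (37.0 Mb) and 0.03 ± 0.06 (37.1 Mb, not called). At the Pcdhb bins they were 0.20 ± 0.06, 0.25 ± 0.06, 0.12 ± 0.06 (not called) and 0.16 ± 0.05, and at the last Pcdhg bin -0.14 ± 0.05. The call at 37.5 Mb was lost without the second female KO library (0.14) or the second male WT library (0.12). That at 37.8 Mb was lost without the second library of female KO, female WT or male KO or the first of male WT (-0.13 to -0.10). In the flanks 13 of 20 bins were lower and 0 higher. With each library's trend removed, edgeR called 0 of the 10 bins, beside 0.872% of all bins. For the gH2AX to H2AX ratio the same difference was higher in 5 of the 10 bins, 4 of them Pcdhb bins (28.4% of all bins called, 13.4% higher). For the gH2AX to input ratio it was higher in 4, of which 3 were Pcdhb bins (23.1% called, 11.3% higher). Neither ratio was computed with the trend removed.

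The within-library ratio of cluster to flank gave the same order of groups. For gH2AX it was -0.43 and -0.40 in male KO (mean -0.42 ± 0.02 SD), -0.24 and -0.26 in male WT (-0.25 ± 0.01), -0.34 and -0.30 in female KO (-0.32 ± 0.02) and -0.38 and -0.36 in female WT (-0.37 ± 0.01). Cluster reads per bin were thus 74.8% of flank reads in male KO and 84.0% in male WT. In females they were 80.2% in KO and 77.2% in WT. The flanks differed between groups too. Their median gH2AX to input ratio was 0.33 in male KO, 0.19 in male WT, 0.24 in female KO and 0.29 in female WT. In the cluster to flank ratio, KO and WT did not overlap in either sex. The direction was opposite, lower in KO for males and higher in KO for females. Such a lack of overlap was common in single bins. In males 39.4% of all bins were lower in KO without overlap and 35.2% higher. In females 5485 of 25702 bins were lower in KO without overlap and 5950 higher. The cluster to flank ratio was not computed for other regions, nor with the trend on enrichment removed. In the bin fit with the trend removed, the cluster and flank medians of the KO effect were -0.03 and -0.00 in males and -0.00 and 0.00 in females, with 0 cluster bins called in either sex.

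No KO difference was called for H2AX or input over the cluster. For H2AX, edgeR called 0 of 10 bins in females (1 at an unadjusted p under 0.05, 0.152% of all bins called) and 0 in males (0 at an unadjusted p under 0.05, 0.191%). The H2AX differences ran from -0.08 (37.4 Mb) to 0.04 (36.9 Mb) in females and from -0.04 (37.6 Mb) to 0.06 (37.5 Mb) in males, each with an SE of at most 0.04. For input, edgeR called 0 of 10 in females (0.183% of all bins) and 0 in males (0.222%), with 0 at an unadjusted p under 0.05 in either sex. Input differences ran from -0.04 to 0.04 in females and from -0.06 to 0.05 in males. DESeq2 called 0 bins in all of these comparisons.

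The KO effect was also computed on the gH2AX to H2AX ratio, from the same gH2AX libraries. In males it was lower in 5 of 10 bins, beside 30.1% of all bins called, 14.3% lower, with values of -0.17 ± 0.05 (36.9 Mb), -0.21 ± 0.05 (37.0 Mb), -0.17 ± 0.05 (37.2 Mb), -0.15 ± 0.06 (37.3 Mb) and -0.20 ± 0.05 (37.5 Mb). Without the first gH2AX library of male KO, or without the second H2AX library of male WT, 3 bins were called. The call at 37.3 Mb was lost under 4 such omissions (-0.14 to -0.10), that at 36.9 Mb under 2 (-0.13 and -0.12) and that at 37.2 Mb under 1 (-0.14). In females edgeR called 0 of 10 bins, 2 had an unadjusted p under 0.05, DESeq2 called 0, and 0.237% of all bins were called. Those female values ran from -0.07 (37.8 Mb) to 0.15 (37.3 Mb). Relative to input, gH2AX was lower in male KO in 5 of the 10 bins (19.6% of all bins called, 8.79% lower). The KO effect on these ratios was not computed with each library's trend on gH2AX enrichment removed.

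The non-clustered protocadherins are single genes spread over several chromosomes. Each was read from 1 bin of 100 kb, that holding most of the gene body, or the first by position where several tied. For a gene longer than a bin, the value covers only part of it. Of 12 genes (Pcdh1, Pcdh7 to Pcdh10, Pcdh11x, Pcdh12, Pcdh15 and Pcdh17 to Pcdh20), gH2AX to input was higher for 3 and lower for 7, with a median of -0.08 (41.5% and 45.2% of all bins). H2AX to input was lower for 9 and higher for 3 (44.5% and 44.9% of all bins), with a median of -0.23, and ran from -0.50 ± 0.02 at Pcdh17 to 0.41 ± 0.02 at Pcdh1. gH2AX to H2AX was higher for 10 of the 12 and lower for 1, with a median of 0.17, from -0.19 ± 0.02 at Pcdh8 to 0.30 ± 0.02 at Pcdh9, where 38.5% of all bins were higher and 36.6% lower. The clustered bins had 8 of 10 lower in that ratio. For KO against WT, 2 were higher and 3 lower in males (22.4% and 22.2% of all bins) and 0 were called in females (1.01%), with Pcdh10 (-0.17 ± 0.04) and Pcdh1 (0.14 ± 0.04) at the ends in males. Pcdh1 and Pcdh12 lie in the right flank.

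Genes whose products act on protocadherin promoter choice and looping (Ctcf, the cohesin genes Rad21, Smc1a, Smc3, Stag1 and Stag2, the cohesin loader Nipbl and releaser Wapl, and Smchd1, Dnmt1, Dnmt3b and Setdb1) were looked up in the same way. gH2AX to input was higher for 9 of these 12 and lower for 2, Nipbl and Stag2, where 41.5% and 45.2% of all bins were. The median was 0.12, from -0.10 ± 0.02 at Nipbl to 0.43 ± 0.02 at Dnmt1, a maintenance DNA methyltransferase. Their gH2AX to H2AX ratio had a median of -0.02, with 4 higher and 2 lower (38.5% and 36.6% of all bins). In male KO 4 were higher and 0 lower than in WT (22.4% and 22.2% of all bins), with a median of 0.05, and in females 0 were called (1.01%). These values are for 1 bin of 100 kb per gene, which holds only part of a longer gene, and concern DNA, not the expression of the gene.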

How the data were processed

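The authors deposited raw counts of reads in 100 kb bins of mm10, 1 column per library. The submitters' processing notes name Bowtie2 2.2.9, Trimmomatic 0.36 and deepTools 2.4.2 beside MACS2 2.2.7.1, FastQC 0.11.3 and SAMtools 0.1.19, without the order of use. The handling of duplicates and of reads with several alignments is not given in the sources used here, and either could shift counts between paralogs. A further 24 columns match no labelled sample and were left out.

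The counts were fitted with edgeR 4.0.16 (R 4.3.3, glmQLFit and glmQLFTest) with a mean per group, TMM factors from autosomal bins and filterByExpr. Ratios came from a fit of all 24 libraries and KO effects on 1 antibody from its 8 libraries. The SE is the log2 value divided by the square root of F, and the median biological coefficient of variation was 2.02% (24 libraries), 2.12% (gH2AX), 2.13% (H2AX) and 1.85% (input). Cluster bins held 2058 reads or more per library, so counting error in the shallower libraries is of the order of the replicate spread. The pipeline was run on simulated counts with a common dispersion and no enrichment trend between libraries. That run therefore does not bear on the trend described above. The cluster, the gene lists and the tests were chosen with earlier results of these data known. All 10 bins were described, per-library values were given for called bins and for the extremes, and flanks and listed genes by counts, with values for the highest and lowest. Alternatives were other size factors, no filter, DESeq2 1.42.0, a replicate block, each library left out, input change subtracted, and the gH2AX enrichment trend removed. That trend was a lowess of each library's deviation from the mean of the 8 gH2AX libraries on the mean log2 gH2AX to input ratio. It was used as an offset. No genome sequence was used, and no sequence is printed.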

Additional observations from a re-analysis of the deposited data

Results flagged for a closer look

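The KO effect on gH2AX differed between females and males by a test of the difference itself (edgeR, female minus male, adjusted over all bins) in 6 cluster bins. The values were 0.21 at 36.9 Mb (adjusted p = 0.00264), 0.23 at 37.0 Mb (0.00105), 0.20 at 37.2 Mb (0.00402), 0.25 at 37.3 Mb (0.000894), 0.16 at 37.5 Mb (0.0135) and -0.14 at 37.8 Mb (0.0204). The share of all bins called in that test was 40.5%, and none of the 6 was called with each library's trend on gH2AX enrichment removed.

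The same difference for the gH2AX to H2AX ratio was 0.22 at 37.0 Mb (adjusted p = 0.0193), 0.26 at 37.2 Mb (0.0065), 0.30 at 37.3 Mb (0.00311), 0.22 at 37.4 Mb (0.0158) and 0.24 at 37.5 Mb (0.00764), where 28.4% of all bins were called (edgeR). For the gH2AX to input ratio it was 0.21 at 37.0 Mb (adjusted p = 0.0329), 0.27 at 37.2 Mb (0.00607), 0.27 at 37.3 Mb (0.00961) and 0.20 at 37.5 Mb (0.0333), where 23.1% were called (edgeR). Both ratios use the same gH2AX libraries, and neither was computed with each library's trend on gH2AX enrichment removed.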

How the results depend on the processing

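With each library's trend on gH2AX enrichment removed, the count of called cluster bins went from 6 to 0 for the male KO effect on gH2AX and from 6 to 0 for its difference between the sexes. The mean cluster to flank ratio of H2AX went from -0.12 to -0.15 without the first and last bin, and that of input from -0.024 to -0.037 there and to -0.062 with 20 flanking bins per side. Leaving out 1 library at a time, with the lone library assumed to vary like the other groups, gave 9 to 10 called bins for gH2AX to input, 8 to 8 for H2AX to input and for gH2AX to H2AX, 3 to 5 for the male KO effect on gH2AX, 4 to 6 for its difference between the sexes, and 3 to 5 for the male KO effect on gH2AX to H2AX. The comparisons with 0 calls stayed at 0 to 0. The counts were within 1.5 times the main ones, and no call changed sign, with DESeq2, DESeq2's size factors, no filter, input change subtracted and the replicate block. Replicate numbers did not pair the samples: deviations of same-numbered libraries correlated at -0.04 to 0.06 over 24032 bins, and with the number as a replicate block the counts were 9, 8 and 8 for the ratios and 6 for the male KO effect and for its difference between the sexes. With input change subtracted, the call at 37.7 Mb in males and those at 36.9 and 37.8 Mb in the difference between the sexes were lost. A correction for GC content was not run, since no genome was given. Bins of 100 kb do not resolve promoters, and groups of 2 libraries and the depth per bin both limit the KO comparisons.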

Other observations

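Other tandem gene families were set beside the cluster by their bins. The 345 bins of olfactory receptor genes (Olfr) had a median gH2AX to input of -0.16 (43 higher, 275 lower, beside 41.5% and 45.2% of all bins), H2AX to input of -0.06 and gH2AX to H2AX of -0.09 (23 higher, 243 lower, beside 38.5% and 36.6%). In male KO they were lower than WT in 213 bins and higher in 13 (22.2% and 22.4% of all bins), with a median of -0.12, and in females 0 were called by edgeR, with a median of 0.03. The 15 keratin bins (Krt) had a median gH2AX to input of 0.17 and H2AX to input of 0.33, so that gH2AX to H2AX was -0.17 (2 higher, 11 lower, against the same shares). In male KO, 2 keratin bins were higher than WT and 0 lower. The 9 Hox bins had medians of 0.07, 0.06 and 0.00 for gH2AX to input, H2AX to input and gH2AX to H2AX. For gH2AX to input 7 were higher and 1 lower (41.5% and 45.2% of all bins). For H2AX to input 6 were higher and 1 lower (44.9% and 44.5%), and for gH2AX to H2AX 2 were higher and 4 lower (38.5% and 36.6%). In male KO 4 Hox bins were higher than WT and 0 lower, beside the 22.4% and 22.2% of all bins given above.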
